A study of Mus musculus with 4 samples.

Results

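The cells described here were the sorted lymph node cells whose deposited cell cycle phase was G2M, the stretch of the cycle that runs from the end of DNA synthesis through mitosis. They were chosen by that column of the deposited cell table alone, which gave 157 of 3963 lymph node cells, out of 14875 cells in the series. The library labelled ICOS WT held 70 of them among 1897 cells, and the library labelled ICOS FC held 87 among 2066. The other lymph node cells carried the call S (720 cells) or G1 (3086 cells).

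The study profiled single regulatory T cells of C57BL/6 mice that either had ICOS, a costimulatory receptor of T cells, or were described as ICOS-deficient (ICOS FC), in 1 library per group. Both lymph node libraries came from cervical draining nodes taken on day 1 of an oxazolone challenge, a skin sensitiser that provokes inflammation, and the 2 spleen libraries came from mice at steady state. In all 4, live CD4+TCRβ+YFP+ cells were sorted to a purity of over 95% and sequenced with droplet 3′ chemistry that counts each captured transcript once by its molecular identifier (UMI). The labels give neither the number of animals behind a library, nor their age, nor what drives YFP, and the expansion of FC is not stated.

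A cell that divides first raises the genes of DNA synthesis and then, under the MYBL2 and FOXM1 factors, a second wave that builds the mitotic spindle, condenses chromosomes and switches on the cyclin B kinase. The anaphase-promoting complex ends mitosis by marking cyclin B and other proteins for destruction. Regulatory T cells, which hold immune responses in check, are known to divide readily in vivo, and effector-like ones more than resting ones. A phase call from single-cell RNA is a score over such genes, so it ranks cells by their transcripts and does not see DNA content.

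With 1 library per group there was no replicate of a genotype, so no test across animals could be made and no p-value is given. Shares carry 95% exact (Clopper-Pearson) intervals and ratios carry exact conditional Poisson intervals, and both cover counting error only, not the variation between animals. Levels are summed UMIs of a set of cells per 1000000 UMIs of that set (CPM). The 2 lymph node libraries shared 30 cell barcodes. In 27 of these pairs the larger cell had at least 10000 UMIs and the smaller cell held 2.21% to 2.96% as many (median 2.46%). Of the smaller cells of shared barcodes, which had 502 to 1388 UMIs, 9 were G2M-phase cells (5 in ICOS WT, 4 in ICOS FC), and 5 of those had a G2M-phase partner. A further 2 G2M-phase cells shared a barcode with a spleen cell. The Icos transcript itself stood higher under the label ICOS FC: 835 CPM in ICOS WT and 990 CPM in ICOS FC among G2M-phase cells, and 534 and 878 CPM among G1-phase cells. The deposited cells are named Control and KO, and these names were matched to ICOS WT and ICOS FC by the words alone. Whether that match is right was not tested, nor was what a 3′ count of Icos says of a deletion. The genotypes below are therefore those of the matched labels.

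Depth was not even among the G2M-phase cells. Their median was 3958 UMIs in ICOS WT (quartiles 1694 and 7781, range 500 to 63355) and 9326 in ICOS FC (quartiles 2970 and 23130, range 512 to 64013), against 6590 and 6581 in the G1-phase cells. Cells under 2000 UMIs made up 20 of the 70 and 18 of the 87, while only 22 of 1500 and 25 of 1586 G1-phase cells lay that low. At the other end, 17 and 43 of the G2M-phase cells had at least 10000 UMIs. Mitochondrial genes gave a median of 3.55% and 3.06% of UMIs, close to the 3.90% and 3.65% of the G1-phase cells. Summed over cells, the levels below rest on 604647 UMIs of G2M-phase cells in ICOS WT and 1297452 in ICOS FC. Cells of at least 10000 UMIs held 83.7% of the G2M-phase UMIs of both libraries together, so summed levels describe mostly those cells.

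The 4 genes used to check the call are Mki67 (the nuclear protein Ki-67, present in cycling cells), Top2a (topoisomerase II alpha, which untangles replicated DNA), Ube2c (the ubiquitin-conjugating enzyme of the anaphase-promoting complex) and Cenpf (a kinetochore protein of G2 and mitosis). All 4 are in the standard G2M list, as are Ccnb2 (cyclin B2) and Cdc20 (the activator of the anaphase-promoting complex). Their upstream sequences are shown because late cell cycle genes are known to carry a cell cycle homology region (CHR, searched as TTTGAA or TTTAAA) near CCAAT boxes (searched as CCAAT), and these members moved together. Each line gives 200 bases that end 10 bases before the RefSeq start on GRCm38.p6, 5′ to 3′ on the strand of the gene, with every CHR and CCAAT match on either strand in capitals (a reversed match reads TTCAAA or TTTAAA, and ATTGG; in Ube2c a CCAAT and an ATTGG overlap). The Ube2c window reaches past the gene start that GENCODE places at 164769898. The windows lie at chr7:135716390-135716589 (Mki67, minus strand), chr11:99024200-99024399 (Top2a, minus), chr2:164769719-164769918 (Ube2c, plus), chr1:189688097-189688296 (Cenpf, minus), chr9:70421565-70421764 (Ccnb2, minus) and chr4:118437354-118437553 (Cdc20, minus).
Mki67: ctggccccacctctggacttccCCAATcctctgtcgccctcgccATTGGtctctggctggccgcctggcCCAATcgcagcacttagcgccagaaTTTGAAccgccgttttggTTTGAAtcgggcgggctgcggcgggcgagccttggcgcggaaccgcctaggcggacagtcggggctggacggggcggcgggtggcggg
Top2a: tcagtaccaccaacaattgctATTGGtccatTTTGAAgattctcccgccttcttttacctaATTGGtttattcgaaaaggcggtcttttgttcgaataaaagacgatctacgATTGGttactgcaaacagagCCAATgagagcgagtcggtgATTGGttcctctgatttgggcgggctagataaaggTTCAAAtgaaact
Ube2c: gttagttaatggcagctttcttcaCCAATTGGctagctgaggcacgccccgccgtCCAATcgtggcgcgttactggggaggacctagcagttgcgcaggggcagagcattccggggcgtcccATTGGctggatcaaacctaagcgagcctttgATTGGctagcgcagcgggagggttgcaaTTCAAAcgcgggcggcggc
Cenpf: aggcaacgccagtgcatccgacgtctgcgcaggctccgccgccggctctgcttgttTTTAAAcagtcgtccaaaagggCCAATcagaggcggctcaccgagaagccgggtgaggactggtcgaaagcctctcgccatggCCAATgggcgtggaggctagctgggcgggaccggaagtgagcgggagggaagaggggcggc
Ccnb2: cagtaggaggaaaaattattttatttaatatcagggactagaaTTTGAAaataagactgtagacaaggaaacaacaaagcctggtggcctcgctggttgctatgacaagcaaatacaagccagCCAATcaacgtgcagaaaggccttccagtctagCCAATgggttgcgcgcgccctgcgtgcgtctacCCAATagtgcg
Cdc20: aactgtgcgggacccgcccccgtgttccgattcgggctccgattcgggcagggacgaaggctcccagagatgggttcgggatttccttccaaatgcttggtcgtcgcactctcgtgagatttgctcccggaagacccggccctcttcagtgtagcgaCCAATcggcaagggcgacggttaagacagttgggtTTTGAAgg
All 6 windows held at least 1 CHR match and at least 1 CCAAT match, and none held an E2F match (searched as TTTGGCG or TTTCCCG on both strands). Over all 27025 promoters of the same window, 20.6% held a CHR match, 30.0% a CCAAT match and 6.08% both. Over the 47 genes of the standard G2M list with a sequence, the shares were 48.9%, 72.3% and 44.7%, while over the 31 genes of the standard S list they were 12.9%, 64.5% and 9.68%. E2F matches ran the other way, at 4.26% of G2M-list and 32.3% of S-list windows against 3.27% of all. These are matches of letters in a fixed window and not measured sites.

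The markers split the G2M-phase cells by depth and by score. Among the 70 cells of ICOS WT, 24 had no UMI of any of the 4 markers and 16 had all 4. Among the 87 cells of ICOS FC, 19 had none and 38 had all 4. The cells with all 4 held 63.6% of the G2M-phase UMIs in ICOS WT and 79.2% in ICOS FC. Those with none held 15.4% and 6.55%. At least 2 markers, the cut used below, were found in 33 of 70 cells in ICOS WT (47.1%, interval 35.1% to 59.4%) and in 55 of 87 in ICOS FC (63.2%, 52.2% to 73.3%). In the G1-phase cells this held for 24 of 1500 (1.60%) and 20 of 1586 (1.26%). The score reads these genes, so the cut describes the call and is not a separate sign of division.

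**Figure D1:**
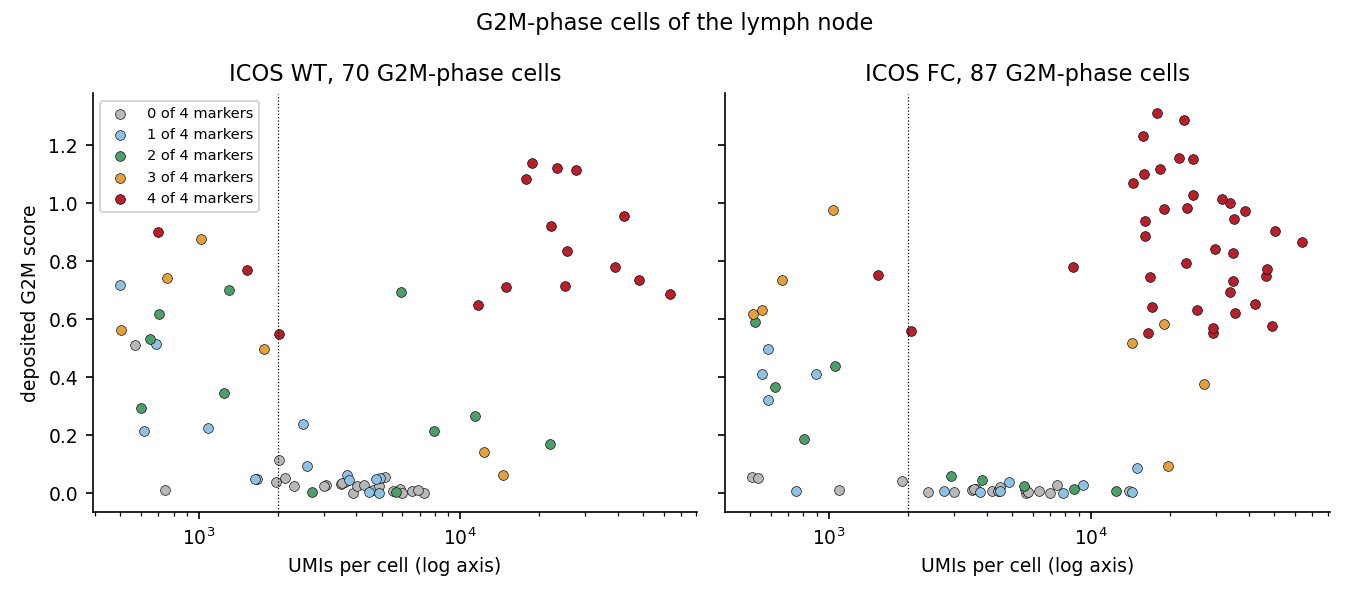
Each point is 1 G2M-phase cell of the lymph node, placed by its UMIs (log axis) and its deposited G2M score, with the number of the 4 markers detected shown by colour and the library by panel. The cells with all 4 markers sit at high depth and high score, with median UMIs of 22839 in ICOS WT and 24565 in ICOS FC, while cells with no marker lie near a score of 0.

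The deposited call matched a simple rule in all 3963 cells: the G2M score was above 0 and above the S score. The weakest calls were close to that line, with G2M scores of 0.000258, 0.000457 and 0.000528 in the 3 cells just inside, none of which had a marker. The nearest cells just outside had a G2M score of -0.000213 (phase G1) and of 0.00283 below an S score of 0.00360 (phase S), and each of them had 1 marker. Of the 157 cells, 67 had a score under 0.1, and 41 of these had no marker and 9 had at least 2. At the other end 80 cells scored 0.3 or more, and 73 of them had at least 2 markers and 54 had all 4. Deep, high-scoring cells (at least 10000 UMIs and a score of 0.3 or more) numbered 51, with 13 in ICOS WT and 38 in ICOS FC, and 48 of them had all 4 markers. A shallow group of 25 cells (13 and 12) scored as high with under 2000 UMIs, and 18 of them had at least 2 markers. Another 52 cells (28 and 24) had at least 2000 but fewer than 10000 UMIs and a score under 0.1, and 33 of them had no marker. These cuts of depth and score were set after the values were seen.

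Levels of the markers in the 3 phases check the label and are not findings, because the score reads these genes. Mki67 stood at 442 CPM in G2M-phase, 68.0 in S-phase and 9.81 in G1-phase cells of ICOS WT, and at 560, 96.0 and 8.28 CPM in ICOS FC. Top2a stood at 863, 168 and 14.0 CPM in ICOS WT and 1104, 213 and 13.6 CPM in ICOS FC. Ube2c fell off more steeply between G2M and S phase, with 848, 21.2 and 4.53 CPM in ICOS WT and 812, 24.8 and 4.27 CPM in ICOS FC. Cenpf stood at 227, 9.91 and 0.185 CPM in ICOS WT and 320, 13.7 and 1.16 CPM in ICOS FC. The order G2M, S, G1 was the same for all 4 genes in both libraries.

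Since depth differed, each cell was thinned to 2000 UMIs, which left 50 and 69 G2M-phase cells and removed 20 and 18. Then at least 2 markers remained in 14 of 50 cells in ICOS WT (28.0%, 16.2% to 42.5%) and 40 of 69 in ICOS FC (58.0%, 45.5% to 69.8%), a wider gap between the libraries than over all cells before thinning. Leaving out the cells under 2000 UMIs without thinning gave 44.0% and 66.7%, so part of the widening came with the removed cells. Top2a was found in 36% of thinned G2M-phase cells of ICOS WT and 58.0% of ICOS FC, against 11% and 14.6% of S-phase and 2.44% and 2.18% of G1-phase cells. Mki67 was found in 38% and 49.3% of thinned G2M-phase cells and in 1.69% and 1.35% of G1-phase cells. Ube2c was found in 26.0% and 43.5%, against 0.338% and 0.769% in G1 phase, and Cenpf in 10.0% and 30.4%, against 0 of 1478 cells in ICOS WT and 0.320% in ICOS FC. The G1-phase shares are a level for comparison only. Free RNA was not measured, and before thinning 44 G1-phase cells had at least 2 markers.

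**Figure D2:**
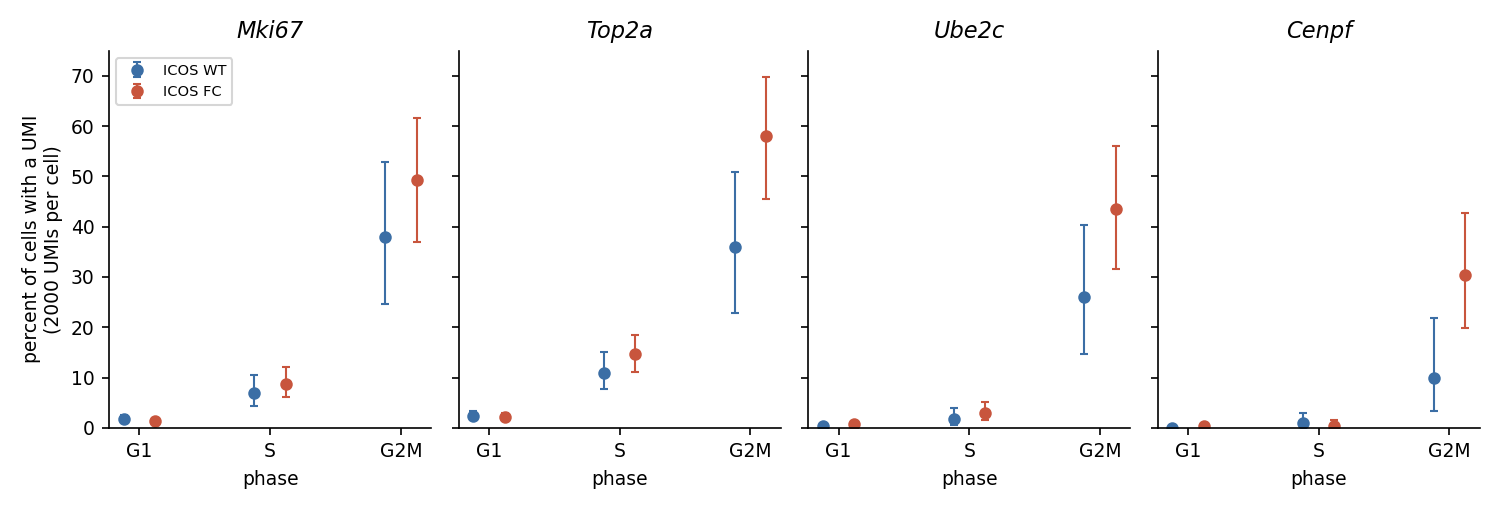
Percent of cells with a UMI of each marker after thinning to 2000 UMIs, by phase and library, with 95% exact intervals. Top2a was found in 58.0% of G2M-phase cells of ICOS FC and 36% of ICOS WT, and in under 3% of G1-phase cells of both.

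A check outside the score used 19 mitotic genes that are in neither standard list. At least 1 UMI of them was found in 98 of 157 G2M-phase cells (62.4%), 41.5% of S-phase and 19.2% of G1-phase cells, and after thinning in 54.6%, 19.4% and 7.21%. Their summed level was 2495 CPM in G2M phase, 306 in S phase and 35 in G1 phase. Within the G2M-phase cells the 19 genes followed the 4 markers: 54 of the 54 cells with all 4 markers had a UMI of them, 12 of 26 with 1 marker, and 5 of 43 with none. They were found in 79 of the 80 cells with a score of 0.3 or more and in 13 of the 67 with a score under 0.1. Among cells called G2M that had no marker the share was 11.6% (3.89% to 25.1%), against 19.2% (17.8% to 20.6%) of G1-phase cells, at median depths of 3902 and 6588 UMIs. After thinning it was 8.57% (3 of 35, 1.80% to 23.1%) against 7.21%, so no order between them is read.

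Cells with at least 2 markers were also found outside the call. Of 267 lymph node cells with at least 2 markers, 88 were called G2M (33.0%), 135 were called S (50.6%) and 44 were called G1 (16.5%). At 2000 UMIs per cell, at least 2 markers remained in 54 of 119 G2M-phase, 34 of 677 S-phase and 3 of 3039 G1-phase cells. Calling the phases again from the standard lists gave 176 G2M-phase cells, of which 134 were among the deposited 157 (85.4% of the deposited calls, 76.1% of the new ones). After thinning to 2000 UMIs the same procedure called 532 of 3835 cells G2M, of which 101 were among the 119 deposited ones still present. The phase share thus moved with depth, and no rate of division is read from it.

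The share of cells called G2M differed little between the labels. It was 3.69% in ICOS WT (2.89% to 4.64%) and 4.21% in ICOS FC (3.39% to 5.17%), with overlapping intervals. S-phase cells made up 17.2% and 19.0%. Without the smaller cell of each shared barcode the G2M share was 3.46% and 4.03%, and without cells under 2000 UMIs it was 2.74% and 3.44%. With the deepest 5% of cells left out it was 3.27% in ICOS WT and 3.16% in ICOS FC, so the order of the libraries turned there. The near-equal shares hold for the call and not for the markers at equal depth. Cells of any phase with at least 2 markers made up 6.59% in ICOS WT and 6.87% in ICOS FC, but 1.48% and 3.19% after thinning to 2000 UMIs.

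G2M-phase cells were not spread evenly over the deposited clusters. Cluster 6 held 42 of them among 179 cells (23.5%, 17.5% to 30.4%), and the share there was 24.2% in ICOS WT (24 of 99) and 22.5% in ICOS FC (18 of 80). Cluster 4 came next with 5.07% (7 of 138) and 7.37% (16 of 217), then cluster 7 with 4.55% (3 of 66) and 7.02% (4 of 57). Cluster 2 held 3.32% and 4.98%, cluster 0 3.43% and 3.23%, cluster 3 1.46% and 2.39%, and cluster 1 0.711% and 2.18%. Cluster 5 held none among 119 and 104 cells, which allows up to 3.05% and 3.48% by the exact interval. In every cluster that held any, the intervals of ICOS WT and ICOS FC overlapped.

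The clusters held different kinds of G2M-phase cell. In cluster 6 they were shallow, with a median of 953 UMIs against 2317 in its G1-phase cells, and 7 of the 42 were the smaller cell of a shared barcode. In that cluster 23 of the 42 had at least 2 markers and 5 had all 4. In cluster 4 the median was 27057 UMIs against 10369 in G1 phase, and 19 of its 23 G2M-phase cells had at least 2 markers and 16 all 4. Cluster 0 held 40, of which 23 had at least 2 markers and 10 had none. Counting only G2M-phase cells with at least 2 markers, cluster 6 gave 13 of 99 in ICOS WT (13.1%) and 10 of 80 in ICOS FC (12.5%), and cluster 4 gave 5 of 138 (3.62%) and 14 of 217 (6.45%). The part that depth plays in where these cells were placed was not tested.

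**Figure D3:**
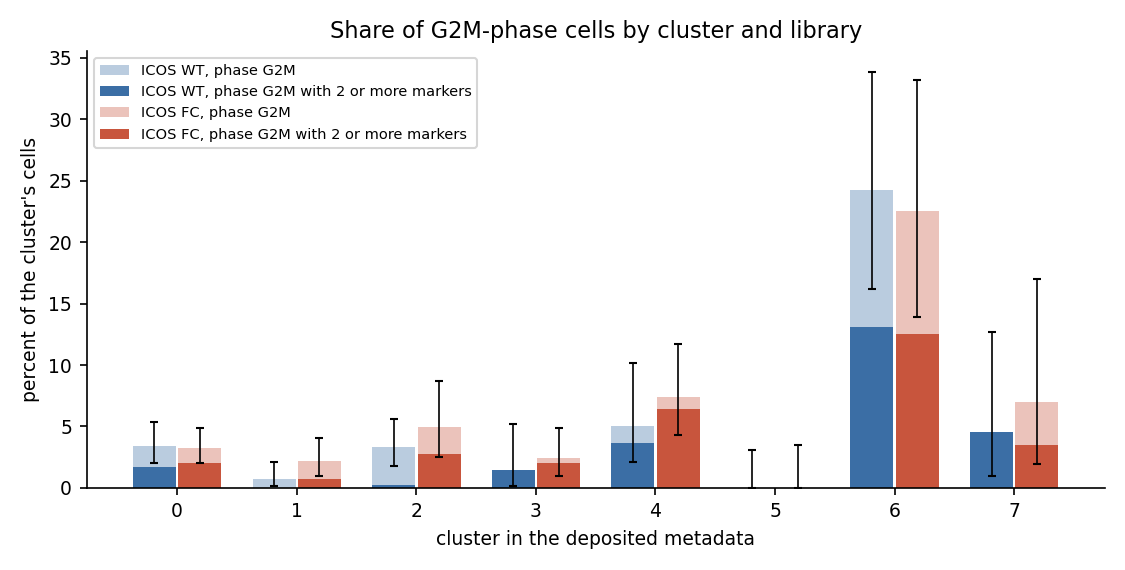
Percent of the cells of each deposited cluster that were called G2M, by library, with 95% exact intervals. Cluster 6 stands at 24.2% in ICOS WT and 22.5% in ICOS FC, and the other clusters lie under 8%.

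Another clustering deposited with the cells, named 0.5 in its header, gathered the cells with markers more tightly. Its cluster 5, picked out after its phases were seen, held 256 cells, 5.96% of ICOS WT and 6.92% of ICOS FC, with 83 called G2M, 173 called S and none called G1. Those 83 cells (30 in ICOS WT, 53 in ICOS FC) had a median G2M score of 0.735, and 75 of them had at least 2 markers. Of the other 74 G2M-phase cells, 23.0% carried a UMI of the 19 mitotic genes outside the score, against 97.6% of the 83.

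In the spleen libraries the call met fewer cells with markers. There 318 of 4995 cells in ICOS WT (6.37%, 5.70% to 7.08%) and 454 of 5917 in ICOS FC (7.67%, 7.01% to 8.38%) were called G2M, a larger share than in the node. After thinning only 3 of 310 (0.968%) and 7 of 431 (1.62%) of those had at least 2 markers, and the 4 markers summed to 132 and 261 CPM against 2380 and 2795 CPM in the lymph node G2M-phase cells. Median depths of the spleen cells were 4228 and 3783 UMIs. Spleen and node were scored in separate tables, and tissue and challenge differ together between them, so they cannot be told apart.

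The comparison of G2M-phase with G1-phase cells asked which genes went with the call. A gene counted as higher or lower where it reached 20 CPM in either phase in both libraries, differed at least 1.5-fold in the same direction in both, and had both intervals clear of equality. A gene near 0 in G1 phase could pass this minimum only through G2M phase, and was then all but bound to be higher. Counts of higher genes in the division lists below are therefore descriptions and not tests. Of 5574 genes measured so, 847 were higher (15.2%) and 378 were lower (6.78%) in G2M phase. The genes of the standard lists were the base of the call: 52 of the 52 measured G2M-list genes and 31 of 33 S-list genes were higher, which is a description. The steepest of them were Hmmr, a spindle-associated receptor (197 against 0.185 CPM in ICOS WT, 230 against 0.178 in ICOS FC), Birc5, survivin (622 against 1.85, and 728 against 1.87), and Nusap1 (321 against 1.02, and 408 against 1.16). Outside both lists 764 of 5489 genes were higher and 378 lower. The median over all genes of at least 5 CPM was 0.05 on the log2 scale in ICOS WT and 0.01 in ICOS FC, and all log2 ratios below are of G2M over G1 CPM. Scaling to the total without ribosomal and mitochondrial genes moved that median by -0.18 and -0.19 and the counts to 661 higher and 720 lower, and scaling by the median of ratios gave 588 higher and 632 lower.

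Cyclins and kinases that drive entry into mitosis were among the highest genes outside the lists. Of 15 measured mitotic cyclins, kinases and phosphatases, 14 were higher in both libraries and none lower. Ccnb1, Ccna2, Plk1 and Pbk passed the 20 CPM minimum only through G2M phase, so for them the count follows from the filter. Ccnb1, cyclin B1, stood at 194 CPM in G2M-phase against 0.555 CPM in G1-phase cells of ICOS WT and at 176 against 0.801 CPM in ICOS FC (log2 8.45 and 7.78). Ccna2, cyclin A2, stood at 222 against 1.02 CPM and 257 against 0.712 CPM. Plk1, the polo-like kinase of mitotic entry, stood at 139 against 0.648 CPM and 151 against 0.534 CPM. Pbk, a mitotic kinase, stood at 62.8 against 0.278 CPM and 108 against 0.0890 CPM. No single cell gave more than 20.9% of the UMIs of these 4 genes. Mxd3, a MAX dimerisation protein, was seen in 15 and 38 G2M-phase cells and stood at 61.2 and 107 CPM against 0.0925 and 0.267 CPM.

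The machinery of the spindle and chromosomes was higher nearly throughout. All 18 measured spindle, kinesin and cytokinesis genes were higher in both libraries, with a list median of 4.83 in ICOS WT (5.06 with genes at 0 set to their bound) and 5.34 in ICOS FC. Members such as Kif18b and Spag5, both at 0.185 and 0.0890 CPM in G1 phase, passed the 20 CPM minimum only through G2M phase. For them, and for Aspm, Knl1, Spc24 and Esco2 below, being counted as higher follows from the filter. Aspm, a spindle pole protein, stood at 71.1 CPM against 0.370 in ICOS WT and 74.0 against 0.356 in ICOS FC. The kinesin Kif14 had no UMI in G1-phase cells of ICOS WT and was at least 143-fold higher in G2M phase there, taking 3 counts per library as the floor. Of 22 kinetochore and centromere genes 20 were higher, among them Knl1 (131 against 0.648 CPM, and 146 against 0.712), the kinetochore scaffold, and Spc24 (177 against 1.48 CPM, and 226 against 1.69), of the Ndc80 complex. Ska1, which couples kinetochores to microtubules, was at 0 in G1-phase cells of ICOS WT, a difference of at least 280-fold, and at 57.8 against 0.178 CPM in ICOS FC. Prr11, a mitotic protein, was at 0 in G1 phase of both libraries and at least 155-fold and 136-fold higher in G2M phase. Of 17 condensin, cohesin and separation genes 12 were higher, led by Esco2, the cohesin acetyltransferase, with 76.1 against 0.185 CPM and 97.9 against 0.178.

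The list of tubulins and microtubule regulators had smaller medians than the spindle list, at 1.54 in ICOS WT and 1.66 in ICOS FC. Of 9 tubulins and microtubule regulators 8 were higher in both libraries. Stmn1, stathmin, a microtubule-destabilising protein, stood apart from this, at 891 against 9.90 CPM in ICOS WT and 1071 against 10.9 CPM in ICOS FC (log2 6.49 and 6.62). Tubb5, a beta tubulin, stood at 1829 against 330 CPM and 2028 against 319 CPM. The anaphase-promoting complex itself was less of a piece: 5 of 13 genes were higher, including the inhibitor Fbxo5 (log2 4.50 and 5.44), the enzyme Ube2s (2.92 and 2.98) and the activator Fzr1 (2.45 and 2.11), and the list median was 0.46 and 0.89.

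Replication and chromatin genes were higher too. Of 23 measured replication genes kept apart from the score, 22 were higher in both libraries (1 of them, Tipin, is also in the S list), such as the thymidine kinase Tk1 (108 against 3.24 CPM, and 109 against 2.31) and the ligase Lig1 (154 against 12.7 CPM, and 171 against 11.8). Pclaf, a partner of the sliding clamp PCNA, stood at 561 against 2.59 CPM in ICOS WT and 812 against 4.45 CPM in ICOS FC, and had the highest rank of all genes outside the lists. Of 22 histone and chromatin genes 20 were higher. Hist1h1b, a linker histone, stood at 691 against 3.70 CPM and 1103 against 2.76 CPM. Hist1h2ap and Hist1h2ab, of histone H2A, and Hist1h3c, of histone H3, were also among the 15 highest, and reads of such near-identical histone copies may be split between genes by the counting. Of 9 measured E2F, DREAM and MYBL2-FOXM1 factors 5 were higher, with Foxm1 at 29.8 against 0.555 CPM and 49.3 against 0.801 CPM.

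**Figure D4:**
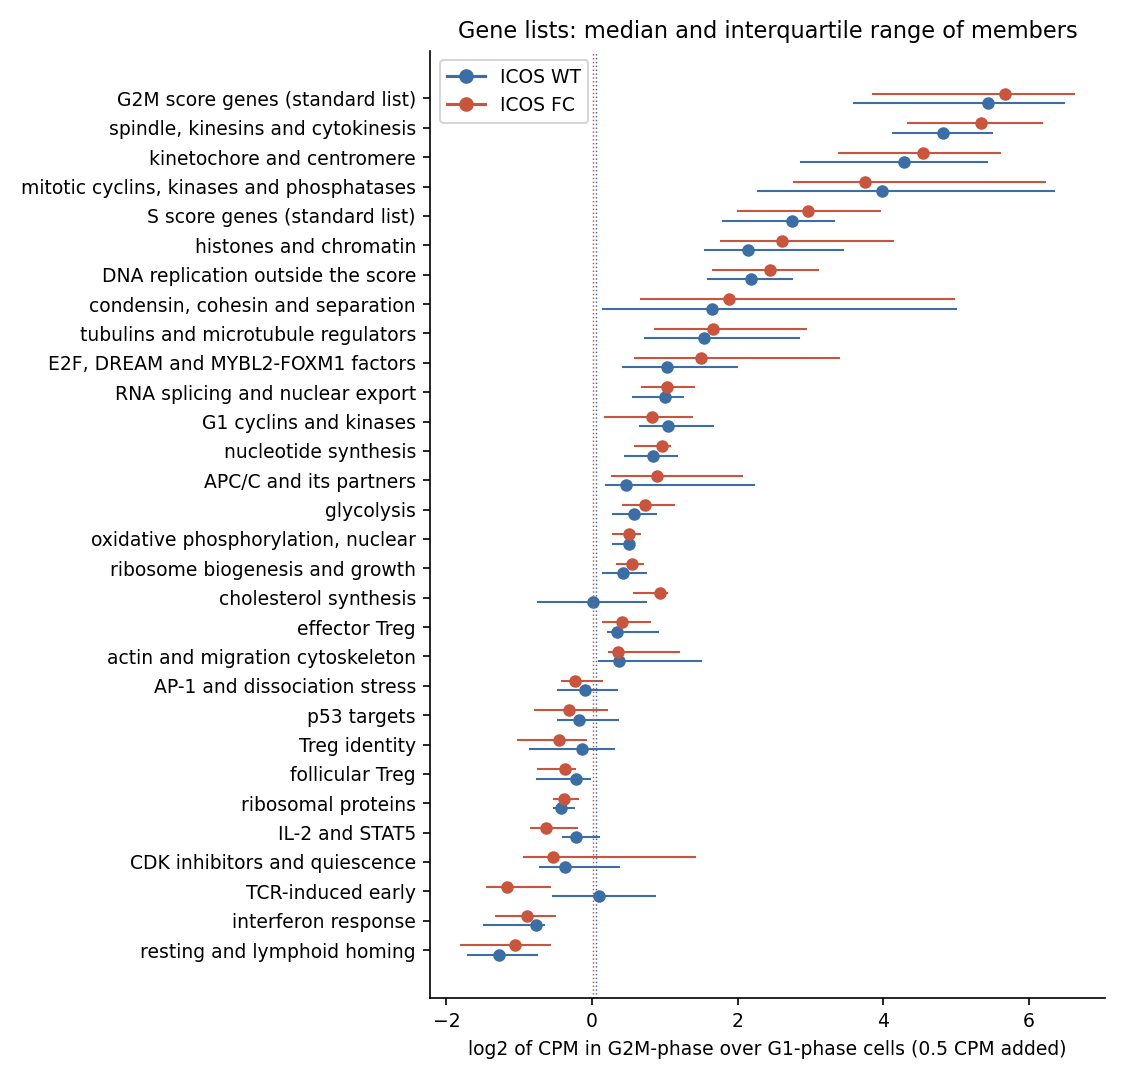
Median log2 ratio of G2M-phase over G1-phase CPM for each gene list, 1 point per library, with bars from the lower to the upper quartile of its members. The spindle list lies at 4.83 and 5.34, the interferon list at -0.77 and -0.89, and the ribosomal proteins at -0.42 and -0.39.

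Genes of growth and metabolism differed by less. Of 14 splicing and export genes 10 were higher, for example Alyref, an export adaptor, at 301 against 80.0 CPM in ICOS WT and 369 against 81.1 in ICOS FC. Of 10 nucleotide synthesis genes 6 were higher, such as Impdh2, of guanine nucleotide synthesis (164 against 65.2 CPM, and 201 against 89.7). Of 11 glycolysis genes 6 were higher, such as Tpi1 (207 against 69.5 CPM, and 220 against 76.0) and Gapdh (1889 against 993 CPM, and 1794 against 899). Of 21 nuclear genes of oxidative phosphorylation 3 were higher (Atp5b, Cox5a, Sdhb), a share near the 15.2% of all genes and so no result about the list, and Sdhb in ICOS WT was -0.74 after thinning. Of 16 ribosome biogenesis genes 5 were higher. The cholesterol synthesis list had 4 of 7 higher in both libraries, with Fdft1, squalene synthase, at 23.2 against 9.25 CPM and 21.6 against 10.9. Of 78 ribosomal protein genes 10 were lower and 1, Rps27l, was higher, with list medians of -0.42 and -0.39. Lmnb1, lamin B1 of the nuclear lamina, stood at 349 against 37.4 CPM and 357 against 36.4 CPM.

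Against only G1-phase cells of at least 10000 UMIs, a set chosen after the values were seen, 605 genes were higher and 145 lower. Of the markers, which the score reads, Top2a had a log2 ratio of 5.67 in ICOS WT and 6.39 in ICOS FC there, and Ube2c went from 7.55 and 7.57 to 6.57 and 6.80. The growth lists were smaller there. The ribosome biogenesis median went from 0.43 and 0.54 to -0.11 and -0.07, and the glycolysis median from 0.58 and 0.73 to 0.14 and 0.49. After thinning all cells to 2000 UMIs 232 genes were higher and 29 lower, 209 and 27 of them among the calls above.

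Regulators of the G1 phase went in mixed directions. Cdk4 (160 against 77.8 CPM, and 197 against 88.1) and Cdk2 (43.0 against 8.23 CPM, and 33.9 against 10.9), kinases that carry cells into S phase, were higher, and so was Cdk6. Ccnd2, the D-type cyclin of T cells, was lower, at 483 against 892 CPM in ICOS WT and 567 against 912 CPM in ICOS FC. Of 11 CDK inhibitor and quiescence genes, the inhibitors Cdkn2c (132 against 13.4 CPM, and 117 against 11.9) and Cdkn2d (164 against 87.9 CPM, and 202 against 60.8) were higher. Btg1 (714 against 1707 CPM, and 455 against 1451), Btg2 and Foxp1, which restrain T cell division, were lower. Among 4 measured p53 targets Trp53inp1 was lower and none was higher.

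Genes of resting and naive-like cells were lower in G2M phase. Of 12 resting and lymphoid homing genes 8 were lower in both libraries and none higher. Ly6c1, a surface protein of resting T cells, stood at 31.4 against 245 CPM in ICOS WT and 18.5 against 171 CPM in ICOS FC, and was found in only 5 and 6 G2M-phase cells. Bcl2, the survival protein, stood at 56.2 against 316 CPM and 63.2 against 367 CPM (log2 -2.49 and -2.54). Its ratios were -1.06 and -1.06 with each cell's CPM averaged, -1.33 and -1.32 with the deepest 5% left out, and -1.51 and -1.55 against deep G1-phase cells. Tcf7, a transcription factor of naive and memory-like T cells, stood at 62.8 against 166 CPM and 44.7 against 122 CPM, but after thinning its ratio in ICOS WT was 0.09, and the list median went from -1.28 and -1.06 to -0.59 and -0.86. Igfbp4, a secreted binding protein, stood at 24.8 against 189 CPM and 13.9 against 126 CPM.

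The interferon response list was lower as a group, with 11 of 15 genes lower in both libraries, none higher in both, and medians of -0.77 and -0.89. Against deep G1-phase cells the medians were -1.07 and -0.94, and after thinning -0.25 and -0.71. Ifit3, an antiviral effector, stood at 61.2 against 259 CPM in ICOS WT and 35.5 against 192 CPM in ICOS FC, and Oasl2 at 8.27 against 63.6 CPM and 10.0 against 51.5 CPM. Ifit1 stood at 111 against 322 CPM and 77.1 against 264 CPM. Outside the list the interferon-induced Ifit1bl1, Gbp2, Slfn1 and Slfn5 were also among the 12 lowest genes, with Slfn5 at 91.0 against 336 CPM and 21.6 against 248 CPM.

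Genes of regulatory T cell identity did not go one way. Of 14 measured, Foxp3, Gpr83, Izumo1r and Lrrc32 were lower in both libraries and none was higher in both. Foxp3, the lineage factor, stood at 48.0 against 80.1 CPM in ICOS WT (log2 -0.74, -1.33 to -0.21) and 31.6 against 85.7 CPM in ICOS FC (-1.44, -1.93 to -0.99). With the deepest 5% of cells (by UMIs) left out, the ratio in ICOS WT was -0.17. Those values rest on 29 and 41 UMIs in G2M-phase cells. After thinning, a Foxp3 UMI was found in 7 of 50 G2M-phase cells (14.0%, 5.82% to 26.7%) and 5 of 69 (7.25%, 2.39% to 16.1%), against 16% of G1-phase cells in both libraries. Cluster 7, where 18.2% and 14.0% of cells had a Cd8a UMI, gave 16.7% and 7.14%, so at this depth a Foxp3 UMI did not set the phases apart from that cluster. Other identity genes stood higher in thinned G2M-phase cells than in cluster 7. Ikzf2 was found in 78.0% and 72.5% against 42.4% and 48.2%, and Il2ra in 46.0% and 50.7% against 28.8% and 41.1%. Ctla4 was found in 42.0% and 43.5% against 25.8% and 37.5%. Of these, only the intervals of Ikzf2 in ICOS WT were apart. Gpr83, a receptor marking regulatory T cells, stood at 13.2 against 65.6 CPM and 18.5 against 75 CPM. Ctla4, the inhibitory receptor, stood at 920 against 451 CPM in ICOS WT and 792 against 595 CPM in ICOS FC, which did not reach 1.5-fold in ICOS FC. Icos passed in ICOS WT only (log2 0.65, against 0.17 in ICOS FC), and the difference between the libraries was not tested. In ICOS WT its ratio was 0.0084 with G1-phase cells in the cluster mix of the G2M-phase cells, 0.13 against deep G1-phase cells, 0.24 with the deepest 5% left out and 0.44 with the median of ratios, each under 1.5-fold. In ICOS FC it was -0.19 with that cluster mix and -0.28 against deep G1-phase cells.

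Of 18 measured effector genes, Lgals1, Irf4, Klrg1 and Gzmb were higher in both libraries and none lower, with list medians of 0.34 and 0.41 that went to -0.02 and 0.00 against deep G1-phase cells. Lgals1, galectin-1, stood at 3175 against 946 CPM and 2052 against 636 CPM. Gzmb, granzyme B, stood at 2031 against 1100 CPM in ICOS WT and 751 against 399 CPM in ICOS FC, but 1 cell gave 67.0% of its UMIs among the G2M-phase cells of ICOS WT. With the deepest 5% of cells left out, the log2 ratio of Gzmb in ICOS WT turned from 0.88 to -0.99, and against deep G1-phase cells it was -0.28 in ICOS WT and -0.13 in ICOS FC. Of 8 early T cell receptor response genes, Cd69 and Cd83 were lower and Irf4 higher. In the IL-2 and STAT5 list Socs1 and Stat5a were lower of 12, and in the stress list the chaperones Hsp90aa1 and Hsp90ab1 were higher and Jun lower of 10. Neither of the 2 measured follicular genes was called in both libraries.

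Within cluster 5 of the 0.5 clustering, which holds both phases, the G2M-phase cells were set against the S-phase cells, a comparison added after the values were seen. Depth was not matched. In ICOS WT the 30 G2M-phase cells had a median of 3964.5 UMIs and the 83 S-phase cells 18781. In ICOS FC the medians were 18952 (53 cells) and 20336 (90 cells). Of the G2M-phase cells of both libraries, 27 lay in the shallow cluster 6 of the other clustering. The part of depth in the values below was not tested. Of 5418 genes measured there, 275 were at least 1.5-fold higher in G2M phase in both libraries (5.08%) and 134 lower (2.47%). Of mitotic genes outside the score, 19 of 19 spindle genes, 12 of 17 cyclins, kinases and phosphatases and 17 of 25 kinetochore genes were higher. A gene low in S phase, such as Cdkn3 below, could be measured only through G2M phase, so these counts are descriptions. Ccnb1 stood at 267 against 13.2 CPM in ICOS WT and 206 against 20.6 CPM in ICOS FC, and Plk1 at 206 against 10.7 CPM and 179 against 20.1 CPM. Genes of the G2M list were used to tell G2M from S phase, so their values only check the label. Among these Cdc20 stood at 230 against 8.83 CPM and 194 against 18.2 CPM, Ube2c at 1227 against 43.5 CPM and 950 against 55.5, and Top2a at 1231 against 351 CPM and 1295 against 453. Cdkn3, a phosphatase of cyclin-dependent kinases, and Arhgap19, a cytokinesis regulator, were chosen after their values were seen. Cdkn3 stood at 137 against 5.05 CPM and 118 against 7.37 CPM, and Arhgap19 at 44.1 against 1.26 CPM and 54.7 against 2.46 CPM.

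Of 29 genes of the replication list 8 were lower in G2M than in S phase and none higher (Tipin of this list is also in the S list). The S list sets the S call, so lower values of its genes in G2M phase follow from the call and are given only to describe it: of 43 genes 20 were lower and 1, Rrm2, was higher. Ung, a uracil glycosylase of DNA repair, stood at 4.90 against 101 CPM in ICOS WT and 2.74 against 98.3 CPM in ICOS FC, and Dtl, which targets the licensing factor Cdt1 for destruction, at 17.1 against 105 CPM and 20.1 against 105 CPM (both chosen after their values were seen). Mcm5, of the replicative helicase, stood at 132 against 304 CPM and 134 against 236 CPM. Ccne1, the S phase cyclin E1, was lower as well, at 22 against 48.6 CPM and 33.8 against 61.9 CPM. Of 22 histone and chromatin genes 15 were higher in G2M phase, such as Hist1h1b at 1018 against 235 CPM and 1302 against 402 CPM. Cdkn2c and Cdkn2d, with Klf2, Ccng2 and Tsc22d3, were the 5 of 12 quiescence genes that were higher, while no regulatory T cell identity gene of 13 was called in either direction.

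The last comparison set the G2M-phase cells of ICOS FC against those of ICOS WT. Of 5853 genes of at least 20 CPM in either library, 195 were at least 1.5-fold higher in ICOS FC (3.33%) and 393 lower (6.71%), each with an interval clear of equality. It rests on 87 and 70 cells of 1 library each at median depths of 9326 and 3958 UMIs, and the part of depth was not tested. Scaling by the median of ratios gave 271 higher and 297 lower. After thinning all cells to 2000 UMIs, 126 were higher and 201 lower, and only 18 and 72 of these were among the calls above. Of the calls, 7 of the 195 higher (3.59%) and 18 of the 393 lower (4.58%) were also called in the same direction among G1-phase cells, where they made up 15.9% of 44 higher and 32.1% of 56 lower genes. Those 44 and 56 were called over all 5387 genes tested in G1 phase, a smaller share than the 3.59% and 4.58%.

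Mitotic genes were set between the libraries over the genes of at least 5 CPM in either library, where 242 of all 8766 genes were higher in ICOS FC and 505 lower. Of 53 measured G2M-list genes 2 were higher and none lower (median log2 ratio 0.18), and of 17 mitotic cyclins, kinases and phosphatases 4 were higher and none lower. Mki67 (0.34, 0.14 to 0.55), Top2a (0.35, 0.21 to 0.50) and Cenpf (0.50, 0.22 to 0.79) lay a little above equality without reaching 1.5-fold, and Ube2c lay at -0.06 (-0.22 to 0.09). These values moved with depth: after thinning to 2000 UMIs they were 0.61 for Mki67, 0.67 for Top2a, 1.39 for Cenpf and 0.43 for Ube2c, of which the first 3 pass 1.5-fold. With each cell's CPM averaged Cenpf was -0.10 and Ube2c 0.22. Of 21 spindle genes 2 were higher and of 27 kinetochore genes 3, with none lower. In the S list 6 of 42 were higher in ICOS FC, led by Cdca7, a chromatin factor of S phase, at 8.27 CPM in ICOS WT and 48.6 CPM in ICOS FC (5 and 63 UMIs). Of 17 ribosome biogenesis genes 5 were higher and of 15 nucleotide synthesis genes 4, with none lower in either.

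Single genes that were higher in ICOS FC came from few UMIs in ICOS WT. Hmgn3, a nucleosome-binding protein, stood at 3.31 and 27.7 CPM, Cdkn2a, a locus of CDK inhibitors, at 6.62 and 33.9 CPM, and Hk2, a hexokinase of glycolysis, at 3.31 and 22.4 CPM. Their counts in ICOS WT were 2, 4 and 2 UMIs, so the log2 ratios were wide, at 3.07 (1.11 to 6.17), 2.36 (0.90 to 4.30) and 2.76 (0.77 to 5.87). Ptprs, a receptor phosphatase (6.62 and 31.6 CPM), was found in 4 G2M-phase cells of ICOS WT and 26 of ICOS FC. Pcyt2, of phospholipid synthesis (4.96 and 27.7 CPM, log2 2.48, 0.82 to 4.83), was found in 3 and 25. Penk, proenkephalin, stood at 6.62 and 34.7 CPM and came from 1 and 6 cells. Hsph1, a chaperone, had the best count, with 26 and 143 UMIs (43.0 and 110 CPM, log2 1.36, 0.75 to 2.02).

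Several of the genes lowest in ICOS FC rested on few cells of ICOS WT. Cd40lg, the CD40 ligand of activated helper cells, stood at 43.0 CPM in 13 cells of ICOS WT and 3.85 CPM in 5 cells of ICOS FC, with no cell giving more than 23.1%, and its log2 ratio of -3.48 was -0.93 with each cell's CPM averaged. Lif, a cytokine, stood at 24.8 and 1.54 CPM, the latter from 2 UMIs (log2 -4.01, -7.18 to -1.90). Egr2, a receptor-induced transcription factor, stood at 43.0 and 6.94 CPM, with 50% of the ICOS WT UMIs in 1 cell, and its log2 ratio of -2.63 was -0.37 with each cell's CPM averaged. For Egr3, its close relative (64.5 and 5.40 CPM, log2 -3.58), 1 cell gave 82.1%, and the ratio turned to 0.55 with each cell's CPM averaged and 1.02 without clusters 6 and 7. Nkg7, of cytotoxic granules, stood at 366 and 87.1 CPM with 52.0% and 65.5% in 1 cell, while the chemokine Ccl3 (92.3%, log2 -4.80, -10.21 to -2.07) and the receptor Klrc1 (100%) rested almost wholly on 1 cell of ICOS WT. Nkg7 also differed among G1-phase cells, at 105 and 24.5 CPM. Gbp2b, a guanylate-binding protein, had 13 UMIs in 2 cells of ICOS WT and none in ICOS FC, which makes it at least 9.30-fold lower, though it stood at 24.5 and 32.3 CPM among G1-phase cells.

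**Figure D5:**
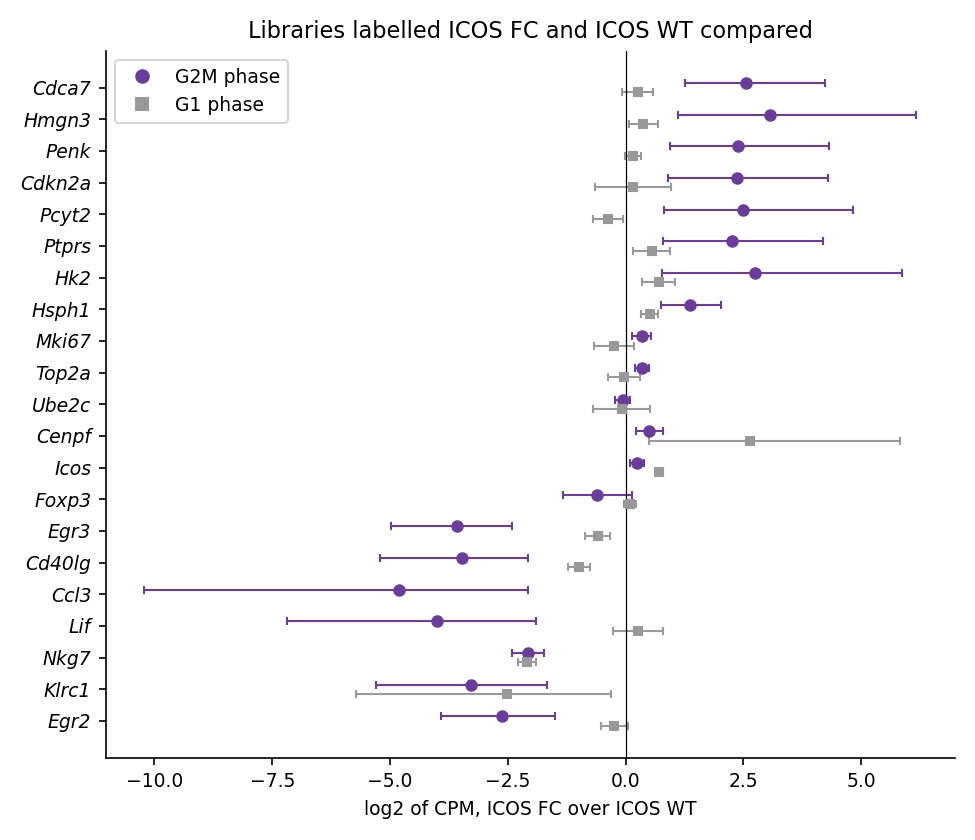
Log2 ratio of ICOS FC over ICOS WT CPM for the named genes in G2M-phase and G1-phase cells, with 95% intervals of counting error. Cdca7 and Hmgn3 lie above 2 in G2M phase and near 0 in G1 phase, and Nkg7 lies near -2 in both.

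Foxp3 differed between the libraries by less than its counting error in G2M phase (log2 -0.60, -1.32 to 0.14). Of 14 regulatory T cell identity genes none was called in either direction, and of 20 effector genes 1 was higher and 4 lower, Gzmb among them (2031 and 751 CPM). Of 11 early receptor response genes 5 were lower and 1 higher in ICOS FC. Of 15 interferon genes 1 was lower.

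Markers of other cell types were checked in the G2M-phase cells, since a sort can pass other cells. All 7 general T cell markers were found, at a summed 4019 CPM in ICOS WT and 3821 CPM in ICOS FC, against 4672 and 4593 CPM in G1 phase. The 5 regulatory T cell markers summed to 2979 and 2753 CPM, against 2386 and 2968 CPM. The CD8 T and NK markers summed to 137 and 106 CPM against 58.7 and 44.3 CPM in G1 phase, with 5 and 6 of 8 detected and Klrb1c and Ncr1 at 0 in both libraries. A Cd8a UMI was found in 4 and 2 G2M-phase cells, and the part of such cells in the values of Gzmb and Nkg7 was not tested. The conventional CD4 T cell markers were lower than in G1 phase (103 and 46.2 CPM against 368 and 276 CPM), with Il2 at 0 in both. B cell markers summed to 11.6 and 23.9 CPM, with Pax5 at 0 in both. Of the myeloid list, Cst3 gave 162 of 180 CPM and 187 of 190 CPM, and Csf1r, Tyrobp and Cd14 were at 0. The germinal centre B cell, plasma cell and stroma lists were led by Fas, Xbp1 and Pecam1, which T cells also express, at 33.1 and 26.2, 104 and 132, and 31.4 and 22.4 CPM summed. Platelet markers were at 0 in both libraries, and erythroid markers had 0 and 1 UMI.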

How the data were processed

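Single-cell 3′ RNA libraries of sorted mouse regulatory T cells were analysed, 1 library per group and 2 from lymph node. The submitters' processing notes name Cell Ranger 4.0.0, R 3.6.1, Seurat 3.0 and GRCm38.p6 (mm10). No source used here states the cell filters, the treatment of doublets or the genes behind the phase scores. No doublet caller was run. The deposited expression values are natural logs of 1 plus UMIs per 10000. The deposited table of cells gives UMI counts and gene counts, the percent of mitochondrial UMIs, S and G2M scores, phases and clusters. Whole UMI counts were recovered for 100% of 8798056 lymph node values (within 0.001). Its libraries are called Control and KO, which were matched to ICOS WT and ICOS FC by the words alone. UMIs were summed per library and phase and compared as CPM. The rules of size were checked on simulated Poisson counts. These do not gather UMIs in single cells, so the check does not cover genes that rest on 1 cell. All cell clusters are the deposited ones.

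The members and gene lists were chosen with earlier results of these data known. The named genes were Icos, Foxp3 and the 4 markers; outside the 2 score lists, the 15 highest and 12 lowest genes, the 8 highest score genes, the 8 highest and 8 lowest genes between the libraries, and up to 4 per list. All were ranked by the interval bound nearest equality, and sex-linked, mitochondrial, haemoglobin and receptor segment genes and unnamed gene models stayed out. List medians used members of at least 5 CPM, with 0.5 CPM added. Python 3.11.15, NumPy 2.4.6, SciPy 1.17.1, pandas 2.3.3, scanpy 1.11.5 and matplotlib 3.10.9 were used. Upstream sequences are from RefSeq. Alternatives covered scaling, depth, cell weighting, cluster mix, thresholds and which cells entered.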

Additional observations from a re-analysis of the deposited data

Results flagged for a closer look

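Of the genes called in either library, 3 were at least 1.5-fold higher in G2M than in G1 phase in 1 library and at least 1.5-fold lower in the other, with both intervals clear of equality. They stand out because the libraries went opposite ways, and the difference was not tested, since each group is 1 library. Ccl5, a chemokine of cytotoxic and memory T cells, had a log2 ratio of 0.90 in ICOS WT and -2.61 in ICOS FC, and 1 cell gave 80.0% of its UMIs among the G2M-phase cells of ICOS WT. Ifitm2, an interferon-induced membrane protein, had -0.76 and 1.71, and 1 cell gave 50.6% in ICOS FC. Nr4a1, an early gene of T cell receptor signalling, had 0.81 and -1.19, and 1 cell gave 53.6% in ICOS WT.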

How the results depend on the processing

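No paired analysis was possible because each group has a single library. Of 28 alternative shares 14 moved by more than the counting interval, and of 54 alternative counts 21 changed by over 1.5 times. Depth and the choice of cells moved most. The G2M share was 2.48% in ICOS WT and 3.37% in ICOS FC without clusters 6 and 7, 2.74% in ICOS WT without cells under 2000 UMIs (chosen after seeing the data), 3.27% in ICOS WT and 3.16% in ICOS FC with the deepest 5% of cells left out, and 13.4% and 14.3% when phases were called again after thinning. Cells of any phase with at least 2 markers made up 6.59% and 6.87%, and 1.48% and 3.19% after thinning. Among G2M-phase cells the share with at least 2 markers was 28.0% in ICOS WT after thinning, the share with at least 1 was 65.7% and 78.2%, and the share with at least 3 was 31.4% in ICOS WT.

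For G2M over G1 phase, 507 genes were higher and 123 lower with each cell's CPM averaged, 232 and 29 after thinning, 347 and 38 without the 5% of cells with most UMIs, and 447 and 134 at 2-fold. The lower genes numbered 720 without ribosomal and mitochondrial genes in the total, 632 with the median of ratios, 648 with only G2M-phase cells of at least 2 markers, 236 at 50 CPM, 683 with only those in cluster 5 of the 0.5 clustering and 145 against deep G1-phase cells (both chosen after seeing the data). For ICOS FC over ICOS WT the counts were 126 higher and 201 lower after thinning, 109 and 204 at 50 CPM, 87 and 186 at 2-fold, and 320 higher with equal cluster mix. Thinning and the stricter thresholds leave fewer UMIs or genes, and for the other settings the cause was not tested.

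Of 3773 alternative values of named genes for G2M over G1 phase, 19 of genes past 1.5-fold in that library changed direction. Gzmb in ICOS WT was -0.38 with each cell's CPM averaged, -0.050 after thinning, -0.99 without the deepest 5% and -0.28 against deep G1-phase cells, where Gzmb in ICOS FC was -0.13 and Fdps in ICOS WT was -0.037. After thinning, ICOS WT gave 0.093 for Tcf7, 0.38 for Cd83, -0.74 for Sdhb, -0.23 for Nop58 and -0.021 for Lmna, and ICOS FC gave -0.38 for Cyp51 and -0.41 for Ctps. Irf4 in ICOS FC was -0.092 with equal cluster mix and -0.20 without the deepest 5%, where ICOS WT gave 0.15 for Trp53inp1, -0.046 for Klrg1, -0.0082 for Eif4a1 and -0.77 for Lmna. Between the libraries 2 of 239 values did so, both of Egr3: 0.55 with each cell's CPM averaged and 1.02 without clusters 6 and 7. Genes under 1.5-fold also changed sign: Icos in ICOS FC was -0.015 without ribosomal and mitochondrial genes in the total, -0.19 with the cluster mix and -0.28 against deep G1-phase cells, and between the libraries Cenpf was -0.10 and Ube2c 0.22 with each cell's CPM averaged, and Ube2c 0.0049 with the median of ratios and 0.43 after thinning. Depth limits what can be said of genes near 20 CPM, since the G2M-phase cells of ICOS WT hold 604647 UMIs in all.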
